A study of Mus musculus with 9 samples.

Results

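Mitosis genes were followed in mouse blood stem and progenitor cells, as total RNA and as RNA on polysomes. The group holds 50 listed genes of the G2 and M phases of the cell cycle: cyclins and kinases, kinesins, kinetochore and checkpoint genes, condensin, and genes of spindle assembly, cytokinesis and mitotic exit. All 50 were found by symbol among the 47480 genes of the deposited count table. All 50 also passed the filter on low counts, as did 16426 genes in all. RNA came from primary hematopoietic cells of C57BL/6 mice, and every library, the LSK and total RNA libraries included, was made from cells that spent 10 min in medium with 100 ug/ml of cycloheximide, which stalls ribosomes on messages. LSK cells, which the labels call stem cells, are in general use the lineage-negative fraction with Sca-1 and Kit. MP cells are labelled as progenitors, and the sources used here do not expand the abbreviation. Total RNA was taken from the lysate ahead of a 10 to 60% sucrose gradient, and polysomal RNA was fraction 7 of the 10 fractions collected. The MP polysomal group had 3 libraries, and LSK total, LSK polysomal and MP total RNA had 2 each. The labels give no sex, age or number of mice and leave unsaid whether each library had its own animals, so the p-values measure a spread between libraries that may be technical. Only 1 gradient fraction was sequenced, so the position of a message among the other fractions was not measured.

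Cells enter mitosis when the kinase Cdk1, bound to cyclin B, is activated by CDC25 phosphatases. Condensin and topoisomerase II then compact the chromosomes, kinesins and spindle proteins build the spindle, and kinetochores attach chromosomes to it while the spindle checkpoint waits for the last attachment. The anaphase-promoting complex with its activator Cdc20 ends mitosis by marking cyclin B and the separase inhibitor for destruction. Messages of most of these genes are known to peak in G2 and M, so their level in a bulk sample follows the share of dividing cells as well as the level per cell. Long-term stem cells are known for being mostly out of cycle, and committed progenitors for dividing often. The share of long-term stem cells among the LSK cells was not measured, so LSK is not taken here as out of cycle. In these bulk libraries, fewer dividing cells and less RNA per dividing cell cannot be told apart.

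Many G2 and M genes share a promoter layout in which a cell cycle genes homology region (CHR) near the start is read by the MuvB complexes, with CCAAT boxes, read by NF-Y, before it. The 6 promoters below are shown because this pair of motifs is a sequence feature that most of the genes were found to share. Each is the first gene of its role with both motifs before the start, from RefSeq on GRCm38.p6, 5′ to 3′ on the gene's strand, from 10 bases before the first motif to the last base before the start. Capitals mark CHR matches (TTTGAA or TTCGAA) and CCAAT boxes, which read TTCAAA and ATTGG where the match lies on the other strand.
Cdk1 (chr10:69352913-69353130, minus strand): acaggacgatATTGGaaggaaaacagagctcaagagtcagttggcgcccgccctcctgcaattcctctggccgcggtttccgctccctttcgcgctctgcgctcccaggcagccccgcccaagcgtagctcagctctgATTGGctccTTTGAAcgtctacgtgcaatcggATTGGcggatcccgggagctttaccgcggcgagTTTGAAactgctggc
Bub1b (chr2:118598013-118598210, plus strand): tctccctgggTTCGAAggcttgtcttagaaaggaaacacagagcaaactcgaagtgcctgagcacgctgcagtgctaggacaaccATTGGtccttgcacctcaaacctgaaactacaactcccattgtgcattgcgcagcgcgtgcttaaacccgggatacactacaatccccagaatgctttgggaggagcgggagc
Kif11 (chr19:37376327-37376381, plus strand): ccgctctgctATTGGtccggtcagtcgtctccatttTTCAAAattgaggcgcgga
Ncapg (chr5:45669739-45669924, plus strand): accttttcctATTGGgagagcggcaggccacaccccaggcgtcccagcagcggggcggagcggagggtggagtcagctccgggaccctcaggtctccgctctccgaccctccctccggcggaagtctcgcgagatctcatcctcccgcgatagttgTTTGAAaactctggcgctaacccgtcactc
Prc1 (chr7:80294404-80294475, plus strand): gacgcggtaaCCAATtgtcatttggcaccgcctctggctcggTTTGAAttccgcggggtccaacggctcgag
Ect2 (chr3:27153879-27154002, minus strand): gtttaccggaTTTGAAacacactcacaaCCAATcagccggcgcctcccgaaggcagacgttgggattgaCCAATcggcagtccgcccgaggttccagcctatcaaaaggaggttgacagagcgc

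Cdk1 carried 2 CHR matches before its start, with first bases at -71 and -15, and CCAAT boxes at -208, -80 and -48. Kif11, which encodes the motor that pushes spindle poles apart, had its CCAAT box at -45 and its CHR match at -19. Ncapg, a condensin subunit, had a CHR match at -30, as had Prc1, which bundles midzone microtubules, in the promoter shown. The checkpoint kinase-like gene Bub1b and Ect2, the exchange factor that starts the cleavage furrow, held their CHR match before the start at -188 and -114, and each had a further match after the start, at 40 and 39. In the stretches shown, that match lay before the CCAAT boxes (-113 in Bub1b, -96 and -55 in Ect2), the reverse of the layout above.

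The promoter table held 43 of the 50 genes, in 46 promoters of 300 bases (250 before and 50 after the start). A CHR match on either strand, with the palindrome TTCGAA counted 1 time, lay in 34 of the 43 (79.1%), against 21.7% of all 27025 genes with a promoter. CCAAT lay in 31 (72.1%), against 41.1% of all genes, and both motifs lay in 29 (67.4%), against 8.61%. CHR matches of the mitosis genes had a median distance of -17 bases from the start, and those of all other genes -125. The CCAAT medians were -76 and -92. Among 83 other mitosis genes with a promoter, listed further on, 43.4% held a CHR match, 61.4% a CCAAT box and 28.9% both. A match is a description of letters and no evidence of binding. Plk4, Birc5, Mad2l1, Nuf2, Kif18a, Ncaph and Nusap1 had neither motif in this window. Side by side, the median log2 change of polysomal over total RNA in MP, described further on, was 1.22 for the 29 genes with both motifs and 1.10 for the 7 with neither, a difference that was not tested.

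**Figure D1:**
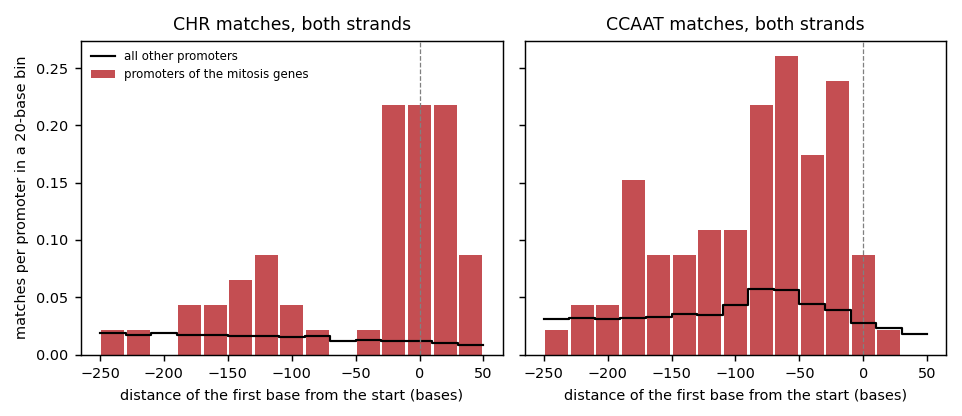
Distance of CHR (left) and CCAAT (right) matches from the annotated start in bins of 20 bases (x axis), as matches per promoter (y axis), for the 46 promoters of the mitosis genes (bars) and all other promoters (line). CHR matches of the mitosis genes gather around the start, with a median of -17 bases against -125 in the others.

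Total counts per library ranged from 27342343 to 34807735, and the 50 genes took 0.597% to 1.09% of them, and the lowest single count was 167, for Ndc80 in LSK polysomal 2, so counting error was small beside the spread between libraries. Marker genes went with the labels. Ly6a, which encodes Sca-1, stood at 50.2 to 109.6 CPM (counts scaled to a common library size with TMM) in LSK and at 0.159 to 1.26 in MP libraries, and Procr at 34.7 to 77.2 and 0.414 to 0.826. Elane was 1015 to 1089 in LSK and 4393 to 11080 in MP, Car1 278 to 543 and 3013 to 5292, and Kit 330 to 1595 and 493 to 1290. Other blood cells showed in some libraries: 8 genes of maturing neutrophils, all detected, summed to 14270 and 17710 CPM in the MP total and MP polysomal libraries numbered 1, and to 511 to 1003 in the other MP libraries. In LSK their sum was 677 and 440 CPM in total and 2403 and 1377 in polysomal RNA. For 9 B and plasma cell genes, all detected, the sum was 4793 and 3366 CPM in the LSK libraries numbered 2, 622 and 898 in those numbered 1 and 155 to 357 in MP. Their part in the results below was not tested; values without those libraries are given where they move a result.

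Libraries of the same group differed in the mitosis genes as a whole, and the spread was not limited to these genes. Over 9073 genes at 10 CPM or more, correlations of log2 CPM ran from 0.597 to 0.932 within groups and from 0.48 to 0.914 between groups. The median over the 50 genes, in log2 CPM, was 7.16 and 6.17 in LSK total, 6.85 and 5.93 in LSK polysomal, 6.63 and 6.36 in MP total, and 7.32, 7.55 and 7.35 in MP polysomal RNA. The 3 MP polysomal libraries were the highest of the 9, and in LSK the library numbered 2 was the lower in both fractions. On the scale of CPM per kilobase of transcript, which allows levels of genes to be compared, Birc5 (188), Ube2c (171) and Bub3 (142) led in LSK total RNA, and Aspm (3.52), Cenpf (6.11) and Cenpe (8.69) were lowest. Birc5 encodes survivin of the chromosomal passenger complex, Ube2c a ubiquitin-conjugating enzyme of the anaphase-promoting complex and Bub3 a checkpoint protein. In MP total RNA Ube2c (327) and Birc5 (309) led again, and Cenpf (1.48) and Aspm (1.83) were lowest. Top2a, topoisomerase II alpha, was at rank 7 of 50 in LSK total and at rank 24 in MP total RNA. Across the 9 libraries the ratio of the highest to the lowest CPM ran from 2.03 for Mad2l1 to 18.4 for Ccna2.

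**Figure D2:**
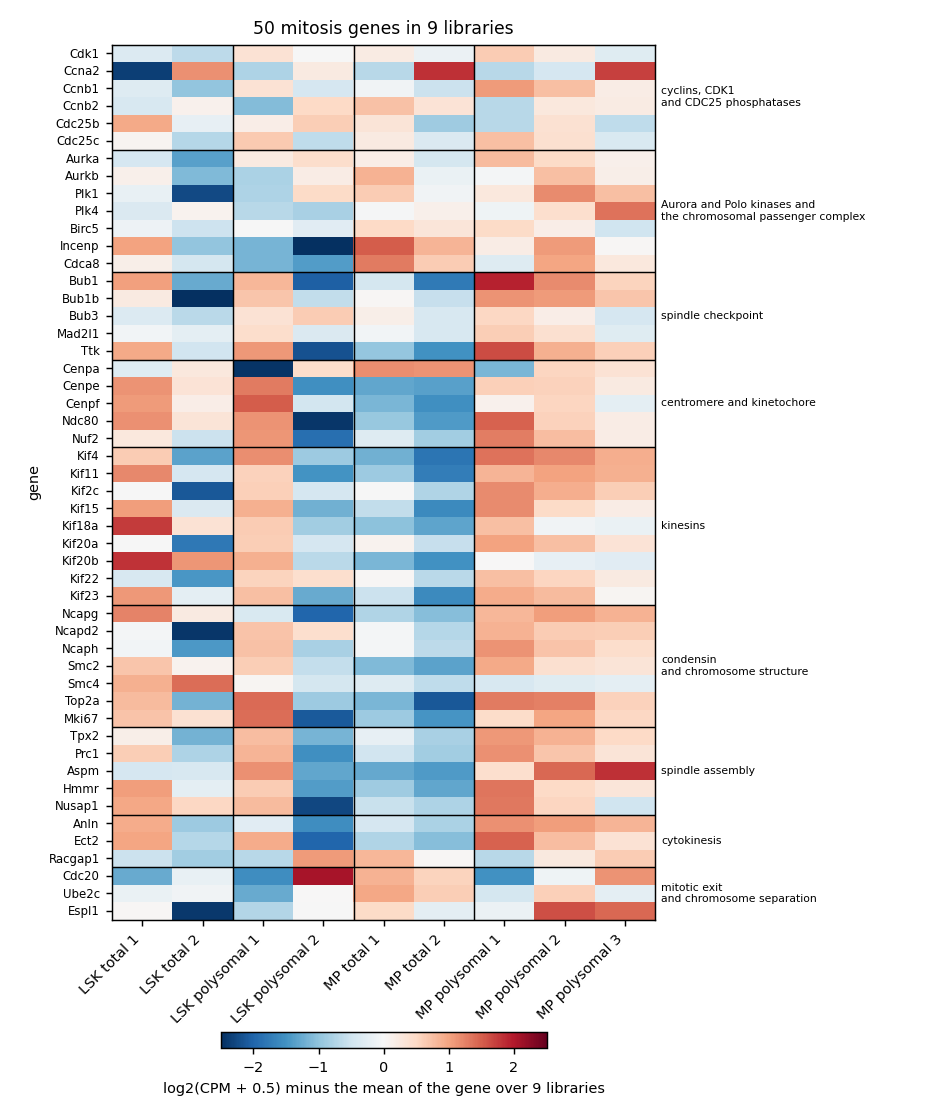
Level of the 50 mitosis genes (rows, by role) in the 9 libraries (columns), as log2(CPM + 0.5) minus the gene's mean over the libraries; red is higher and blue lower. Most kinesin, condensin, spindle and kinetochore rows are blue in MP total 2 and LSK polysomal 2, blue or near white in MP total 1 and red in MP polysomal 1 and 2, while Ube2c and Cenpa are red in MP total RNA.

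The first comparison asked how total RNA differs between the populations, as MP over LSK. Of the 50 genes 24 lay above 0 and 26 below, and no gene passed edgeR's quasi-likelihood test at an adjusted p of 0.05. At that threshold 1.09% of all 16426 genes were called. By unadjusted p under 0.05, 0 of the 50 were higher (4.52% of all genes) and 8 lower (12.5%). DESeq2 called 3, all lower (8.1% of its genes in either direction): Kif20b, Smc4 and Kif18a. The median log2 change of the 50 genes was -0.10, against -0.01 for all genes. It was 0.23 without LSK total 1, -0.55 without LSK total 2, -0.34 without MP total 1 and -0.04 without MP total 2, so its sign rested on single libraries. For all genes, in the same order, the median was 0.03, 0.02, -0.06 and -0.17. Libraries of the 2 groups did not overlap for 9 genes that were higher in MP (22.8% of all genes) and for 17 that were lower (28.5%).

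The roles are given as counts and medians, and differences between them were not tested. The roles also differed in transcript length, which is set against the changes further on. Kinase, passenger complex and cyclin genes were mostly among the shorter transcripts, condensin and chromosome structure genes mostly among the longer, and kinetochore genes of both kinds. All 7 genes of Aurora and Polo kinases and the chromosomal passenger complex lay above 0, with a median of 0.81, and so did the 3 genes of mitotic exit (median 0.93). Of the 6 cyclin, Cdk1 and CDC25 genes, 5 lay above 0 (median 0.42). Kinesins (median -1.55, 6 of 9 below 0), kinetochore genes (-1.99, 4 of 5), condensin and chromosome structure (-1.65, 5 of 7) and spindle assembly genes (-0.95, 5 of 5) lay on the other side. Cenpa, the histone H3 variant of the centromere, was the 1 kinetochore gene above 0, at 1.14.

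Kif20b (GRCm38 chr19:34922361-34975745, plus strand, in GENCODE M21), a kinesin of cytokinesis, showed the smallest p. Its level was 94.8 and 58.2 CPM in LSK total, 49.6 and 16.5 in LSK polysomal, 11.8 and 8.99 in MP total, and 26.8, 23.2 and 21.99 in MP polysomal RNA. Both MP total libraries lay below every other library. The log2 change in total RNA was -2.88 (SE 0.67, 95% interval -4.38 to -1.38, adjusted p = 0.0714 by edgeR). Kif18a, the kinesin that limits chromosome movement at the metaphase plate, was at 51.1 and 19.4 CPM in LSK total, 23.3 and 7.97 in LSK polysomal, 7.03 and 5.65 in MP total, and 25.3, 13.97 and 13.3 in MP polysomal RNA. Again the 2 MP total libraries were the lowest, with a log2 change of -2.47 (SE 0.76, adjusted p = 0.139 by edgeR).

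Smc2 and Smc4 encode the paired ATPases of condensin. Smc4 stood at 135 and 192 CPM in LSK total, 75.02 and 53.7 in LSK polysomal, 57.8 and 46.6 in MP total, and 55.1, 58.6 and 61.1 in MP polysomal RNA. It was high in the 2 LSK total libraries and between 46.6 and 75.02 CPM in the other 7. Its log2 change between populations in total RNA was -1.65 (SE 0.48, adjusted p = 0.123 by edgeR). Smc2 stood at 209.5 and 137 CPM in LSK total, 199 and 85.4 in LSK polysomal, 60.2 and 50.8 in MP total, and 249, 172 and 163 in MP polysomal RNA, so that MP total RNA was lowest. Its change in total RNA was -1.64 (SE 0.56, adjusted p = 0.172 by edgeR).

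Cdk1, the mitotic kinase itself, was at 234 and 189 CPM in LSK total, 381 and 294 in LSK polysomal, 341 and 269 in MP total, and 462, 345 and 239.5 in MP polysomal RNA. The total RNA groups did not overlap, with a log2 change of 0.53 (SE 0.47, adjusted p = 0.634 by edgeR). Aurkb, the kinase of the passenger complex, was at 233 and 99.3 CPM in LSK total, 124 and 242 in LSK polysomal, 391 and 190.1 in MP total, and 206, 360.5 and 237 in MP polysomal RNA. Its groups overlapped in all comparisons. Cdc20, the activator of the anaphase-promoting complex, was at 69.8 and 146 CPM in LSK total, 56.5 and 702 in LSK polysomal, 306 and 247 in MP total, and 57.9, 155 and 363 in MP polysomal RNA. The 2 LSK polysomal libraries lay at opposite ends of the 9, and the SE of its total RNA change of 1.36 was 1.08. Ccna2, cyclin A2, was at 19.9 and 228 CPM in LSK total, 60.3 and 120.4 in LSK polysomal, 63.7 and 366 in MP total, and 63.9, 76.8 and 339.9 in MP polysomal RNA. Its SD within groups ran from 42.5 to 214 CPM, beside group means of 90.4 to 215.

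**Figure D3:**
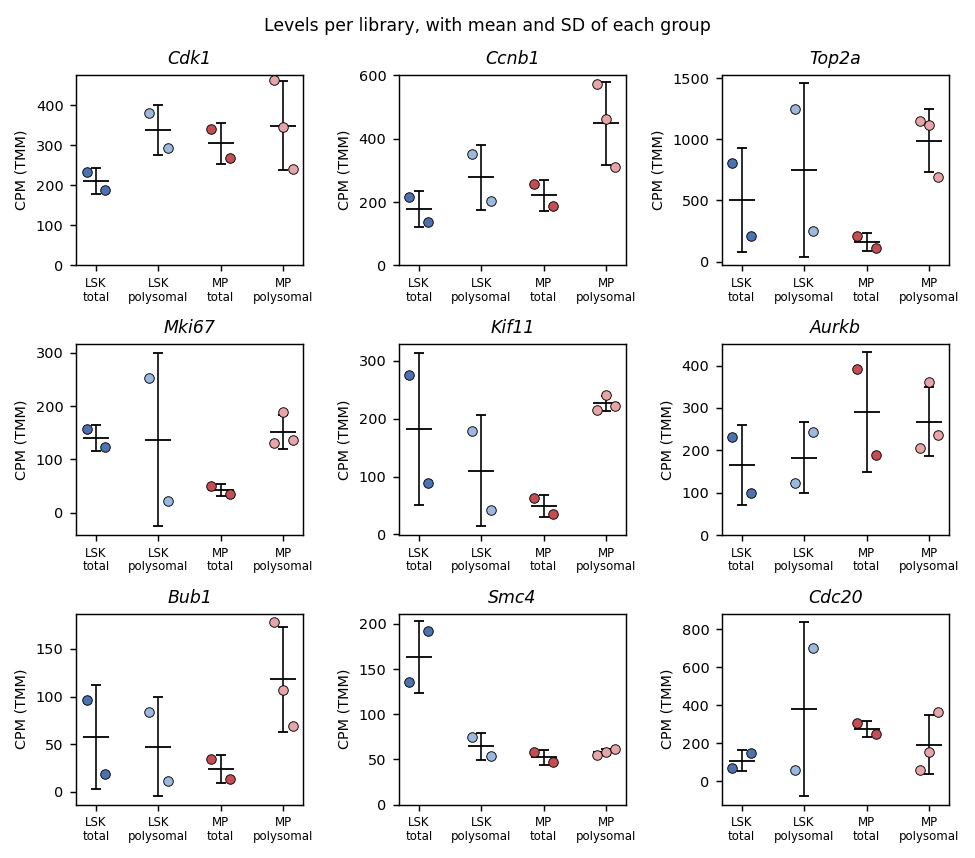
CPM (y axis, scaled by TMM) of 9 mitosis genes in the 4 groups (x axis); points are libraries, horizontal lines means and bars 1 SD of the 2 or 3 libraries, which can reach below 0. Top2a, Mki67, Kif11 and Bub1 are low in both MP total libraries and high in the 3 MP polysomal libraries, and Smc4 is high in LSK total RNA.

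The second comparison set the populations side by side in polysomal RNA, again as MP over LSK. Here most of the genes lay on the high side in MP: 42 of 50 were above 0 and the median log2 change was 0.55, against -0.03 for all genes. No gene of the 50 passed (edgeR, 3.35% of all genes called). By unadjusted p, 5 were higher (6.09% of all genes), namely Cdca8, Ncapg, Incenp, Anln and Plk4, and 0 were lower (11.7%). DESeq2 called Cdca8, Ncapg and Incenp, all higher (8.09% of its genes in either direction). Libraries did not overlap for 7 genes higher in MP (15% of all genes) and for 0 lower (17.4%). The median rested on the 2 LSK polysomal libraries, which stood apart: leaving out LSK polysomal 1 gave 1.37, leaving out LSK polysomal 2 gave 0.061, and leaving out MP polysomal 1 gave 0.36. For all genes these were 0.23, 0.12 and -0.05. Without both LSK libraries numbered 2, those with B and plasma cell transcripts, the median of the 50 was 0.058, against 0.12 for all genes. Thus without LSK polysomal 2, alone or with LSK total 2, the mitosis genes lay below all genes at the median.

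Among the 50, the 4 genes with the smallest p here included Cdca8 and Incenp of the chromosomal passenger complex. Its other members Aurkb and Birc5 had polysomal log2 changes of 0.55 and 0.24, and their libraries overlapped between the populations. Cdca8, which encodes borealin, was at 161 and 107 CPM in LSK total, 65.1 and 54.8 in LSK polysomal, 361 and 226 in MP total, and 116, 288 and 175 in MP polysomal RNA. Every MP library exceeded both LSK polysomal libraries, and the polysomal change was 1.69 on the log2 scale (SE 0.53, adjusted p = 0.126 by edgeR). Incenp, the scaffold that holds Aurora B, was at 246 and 61.5 CPM in LSK total, 53.8 and 21.01 in LSK polysomal, 347 and 219 in MP total, and 138, 255 and 125 in MP polysomal RNA. The LSK polysomal libraries were the lowest of the 9, with a log2 change of 2.20 (SE 0.74, adjusted p = 0.146 by edgeR). No source used here states whether counting used strand, so reads of genes that overlap on the other strand cannot be told apart from those of the named gene.

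Ncapg (chr5:45669919-45700546, plus strand), a non-ATPase subunit of condensin I, was at 143 and 70.3 CPM in LSK total, 45.96 and 14.8 in LSK polysomal, 35.6 and 28.5 in MP total, and 107, 125 and 109.9 in MP polysomal RNA. It was high in LSK total and MP polysomal RNA and low in the other 2 groups. Its polysomal change between populations was 1.90 (SE 0.61, adjusted p = 0.13 by edgeR), and its change in total RNA -1.73 (SE 0.64, adjusted p = 0.202 by edgeR). Anln, anillin of the contractile ring, was at 119 and 32.9 CPM in LSK total, 50.6 and 20.7 in LSK polysomal, 46.3 and 35.6 in MP total, and 138, 128 and 113 in MP polysomal RNA. The MP polysomal libraries lay above both LSK polysomal ones, with a log2 change of 1.82 (SE 0.66, adjusted p = 0.176 by edgeR). By role, the median polysomal change between populations ranged from 0.13 for cyclins, Cdk1 and CDC25 genes to 0.83 for the 3 cytokinesis genes. All 5 spindle assembly genes lay between 0.66 and 0.96, in groups that overlapped.

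The third comparison asked which messages were more or less abundant on polysomes than in total RNA of LSK cells. No shift of the group was seen: the median log2 change was 0.02, the same as for all genes at 2 decimals, with 26 of 50 above 0. None of the 50 passed by edgeR (0% of all genes called) or by DESeq2 (2.24% of its genes). By unadjusted p 2 were higher, Kif22 and Aurka (3.56% of all genes), and 3 lower, Ncapg, Smc4 and Incenp (8.5%). Libraries did not overlap for 5 higher (16.2% of all genes) and 6 lower genes (20.6%). Single libraries turned the median: leaving out LSK polysomal 1 gave -0.98, LSK polysomal 2 gave 0.36, LSK total 1 gave 0.71 and LSK total 2 gave -0.21. For all genes, in the same order, the median was -0.28, -0.15, 0.07 and 0.12.

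Kif22, the chromosome arm kinesin, was at 187 and 89.8 CPM in LSK total, 362 and 332 in LSK polysomal, 252 and 156 in MP total, and 415, 361 and 288 in MP polysomal RNA. In LSK the polysomal libraries exceeded the total RNA ones by 1.33 on the log2 scale (SE 0.52, adjusted p = 0.344 by edgeR). Ncapg and Smc4 were lower on LSK polysomes, by log2 changes of -1.81 (SE 0.64) and -1.35 (SE 0.48), each with an adjusted p of 0.293 by edgeR. For Incenp the change was -2.04 (SE 0.77, adjusted p = 0.328 by edgeR). Ncapd2, another condensin I subunit, lay on the other side at 1.38 (SE 0.68, adjusted p = 0.464 by edgeR), so subunits of 1 complex had changes of opposite sign. Their transcripts also differed in GC content, at 54% for Ncapd2, 39.8% for Ncapg and 40.2% for Smc4. In LSK the change went with GC content (r 0.483 for the 50, 0.41 for genes at 10 CPM or more). After removal of length and GC trends, described further on, the changes were 0.92, -1.31 and -0.70. The part of GC content was not tested.

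The fourth comparison, polysomal over total RNA in MP cells, gave higher values for most of the 50 genes. Their log2 change had a median of 1.15, against -0.08 for all genes, and 39 of 50 lay above 0. Still, 0 of the 50 passed by edgeR (0% of all genes called) and 0 by DESeq2 (0.0256% of its genes). By unadjusted p 13 were higher (4% of all genes) and 0 lower (3.57%). The 3 polysomal libraries all exceeded both total RNA libraries for 30 of the 50 (16.3% of all genes), and all lay below them for 3 (16.4%): Ube2c, Cenpa and Ccnb2. The median ranged from 0.96 to 1.43 when each library was left out in turn, and was 1.27, with 44 of 50 above 0, without the MP libraries numbered 1, those with neutrophil transcripts.

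All 9 kinesins were higher on MP polysomes without overlap (median 1.47), as were all 5 spindle assembly genes (1.42) and 6 of 7 condensin and chromosome structure genes (1.81), Smc4 being the exception. For kinetochore genes 4 of 5 did so (1.52), with Cenpa below at -1.07, and for the checkpoint 3 of 5, Bub1, Bub1b and Ttk (role median 1.22). Aurora and Polo kinases and the passenger complex had a median of -0.12 and no gene without overlap. Cyclins, Cdk1 and CDC25 genes had a median of 0.07, with Ccnb1 higher and Ccnb2 lower. Mitotic exit genes had a median of -0.52. None of these single changes passed the adjusted threshold.

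Top2a (chr11:98992943-99024189, minus strand), which untangles sister chromatids, was at 805 and 206 CPM in LSK total, 1252 and 247 in LSK polysomal, 212 and 107 in MP total, and 1154, 1116 and 691 in MP polysomal RNA. The MP polysomal libraries exceeded the MP total ones by 2.63 on the log2 scale, a fold of 6.19 (SE of the log2 change 0.84, 95% interval 0.75 to 4.51, adjusted p = 0.656 by edgeR). Aspm, a spindle pole protein, was at 34.6 and 34.98 CPM in LSK total, 103 and 18.6 in LSK polysomal, 18.9 and 17.2 in MP total, and 62.03, 126 and 167 in MP polysomal RNA. Its change was 2.71 (SE 0.79, adjusted p = 0.656 by edgeR), the smallest p of the 50. Kif4, a chromosome-bound kinesin of the midzone, was at 117 and 29.1 CPM in LSK total, 167 and 39.7 in LSK polysomal, 32.2 and 20.8 in MP total, and 193, 174 and 141 in MP polysomal RNA. All 3 MP polysomal libraries lay above 141 CPM and both MP total ones below 33, with a log2 change of 2.67 (SE 0.80, adjusted p = 0.656 by edgeR).

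Kif11 was at 276 and 89.6 CPM in LSK total, 178 and 42.2 in LSK polysomal, 63.3 and 35.7 in MP total, and 216, 241 and 222 in MP polysomal RNA, a log2 change of 2.19 on MP polysomes (SE 0.74, adjusted p = 0.656 by edgeR). The 3 MP polysomal libraries lay close together, while the LSK libraries spread from 42.2 to 276 CPM. Mki67, which encodes the proliferation antigen Ki-67, was at 157 and 123 CPM in LSK total, 252 and 21.9 in LSK polysomal, 50.6 and 34.1 in MP total, and 130.1, 189 and 137 in MP polysomal RNA. Its MP change was 1.84 (SE 0.85, adjusted p = 0.666 by edgeR). Bub1, a checkpoint kinase, was at 96.2 and 19.2 CPM in LSK total, 83.96 and 10.9 in LSK polysomal, 34.2 and 13.4 in MP total, and 178, 107 and 69.3 in MP polysomal RNA. The MP groups did not overlap, with a log2 change of 2.31 (SE 1.02, adjusted p = 0.656 by edgeR). Ccnb1, cyclin B1, was at 217 and 138 CPM in LSK total, 351 and 205 in LSK polysomal, 256 and 187 in MP total, and 572, 464 and 310 in MP polysomal RNA. Its MP change was 1.02 (SE 0.48, adjusted p = 0.675 by edgeR). The 2 condensin ATPases differed here: Smc2 had a log2 change of 1.81 (SE 0.53) and Smc4 of 0.16 (SE 0.43), a difference that was not tested.

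**Figure D4:**
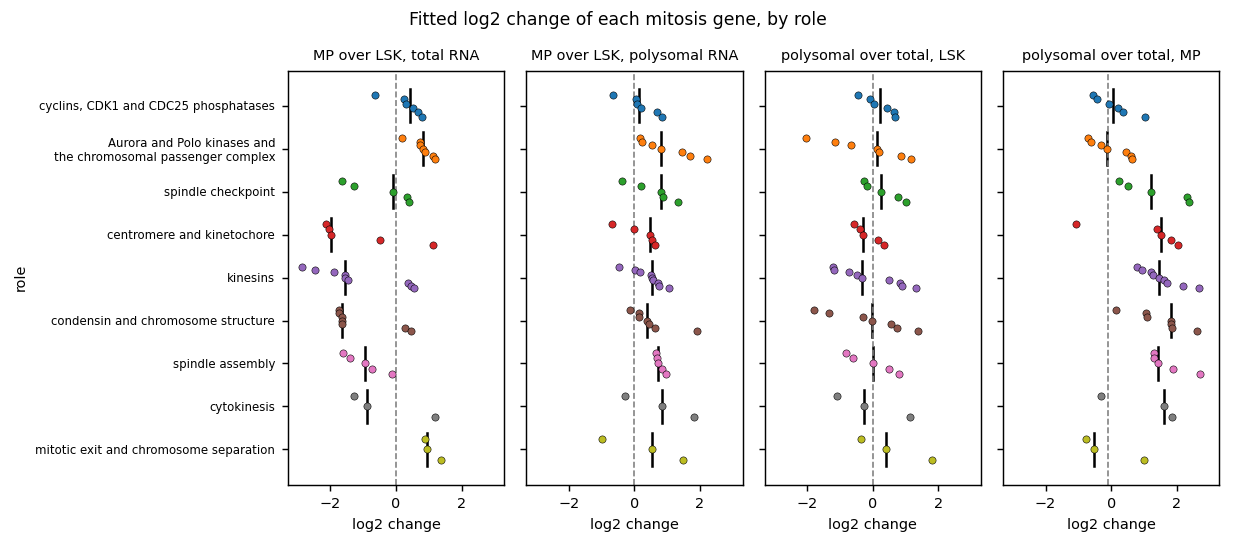
Fitted log2 change of each mitosis gene (points) by role (y axis) in 4 comparisons (panels); black bars are role medians and the dashed line is the median of all tested genes. In MP, polysomal over total, kinesins, condensin, spindle assembly and most kinetochore genes lie to the right, while passenger complex and cyclin genes lie near the dashed line; in total RNA between populations the first 4 roles lie to the left.

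The fourth comparison shares the 2 MP total libraries with the first, so low values there enter both with opposite sign. For Ncapg the 4 log2 changes were -1.73 in total and 1.90 in polysomal RNA between populations, and -1.81 in LSK and 1.83 in MP between fractions. For Top2a they were -1.66, 0.40, 0.57 and 2.63. For Cdk1 they were 0.53, 0.05, 0.68 and 0.20, and for Cdc20 1.36, -0.98, 1.81 and -0.52.

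The difference of the fraction change between MP and LSK, the interaction, was tested in the same fit. Its median over the 50 genes was 0.94, against -0.10 for all genes, with 36 above 0. None of the 50 passed by edgeR (0% of all genes called) or by DESeq2 (0% of its genes). By unadjusted p 8 were higher (4.74% of all genes) and 0 lower (0.554%): Ncapg, Anln, Kif11, Smc2, Kif20b, Kif18a, Hmmr and Smc4. Of these, only Ncapg, Anln and Kif11 stayed under 0.05 after removal of length and GC trends, described further on. Ncapg had the smallest p, with 3.64 on the log2 scale (SE 0.88, 95% interval 1.66 to 5.61, adjusted p = 0.877 by edgeR). Anln followed at 2.71 (SE 0.94), Kif11 at 2.92 (SE 1.04) and Smc2 at 2.10 (SE 0.75), each with an adjusted p of 0.877 by edgeR. The median was 0.38 without LSK total 1 and 1.72 without LSK polysomal 1, the widest moves when 1 library was left out. For all genes it was -0.17 and 0.21 in these fits.

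The change on MP polysomes was then set against the length and GC content of the transcripts. The longest transcript of each gene's longest coding sequence in GENCODE M21 ran from 947 bases (Birc5) to 11130 bases (Cenpf), with a median of 3384, and its GC content from 38.3% (Kif18a) to 56.1% (Espl1). Across the 50 genes the change on MP polysomes went with log10 transcript length (Pearson r 0.638, Spearman rho 0.614) and against GC content (r -0.566, rho -0.581). The same held across the 8807 tested genes at 10 CPM or more (r 0.52 and -0.511), so the relation was also seen outside the mitosis genes. With log10 coding length r was 0.682 for the 50. These correlations are across genes that share the same 5 libraries, and length and GC were themselves related (r -0.447), so they are descriptions.

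Of the 25 longer genes, 3398 bases and more, 25 lay above 0 on MP polysomes (median 1.63), and of the 25 shorter, up to 3369 bases, 14 (median 0.37). In total RNA between populations the order was turned, with medians of -1.46 and 0.56. There the change went with GC content (r 0.78, rho 0.788) and against length (r -0.589, rho -0.62). Across genes at 10 CPM or more these were 0.394 and 0.449 with GC content, and -0.161 and -0.179 with length. In polysomal RNA between populations the medians were 0.56 and 0.55, and r was -0.0308 with length and -0.0632 with GC. Across genes at 10 CPM or more r was 0.195 and -0.262 there.

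The same split by length was also computed within each library. The median log2 CPM of the longer minus that of the shorter genes was -0.002 and -0.62 in LSK total, 0.70 and -1.70 in LSK polysomal, -2.12 and -2.08 in MP total, and 0.29, -0.53 and -0.58 in MP polysomal RNA. Both MP total libraries lay below all 3 MP polysomal ones in this measure, while the 2 LSK polysomal libraries lay at 0.70 and -1.70. When the trend of each library with transcript length and GC content was removed for all genes, an alternative chosen after seeing the data, the median change on MP polysomes was 0.78, against -0.07 for all genes, with 38 of 50 above 0, and 6 genes had an unadjusted p under 0.05, beside 914 of all 16426 genes in either direction: Kif4, Aspm, Top2a, Kif11, Ttk and Ncapg. Kif4 then had a log2 change of 2.21 (SE 0.71) and Top2a of 1.79 (SE 0.67). Adjusted p-values by edgeR were 0.83 or above. In total RNA between populations the median after removal was -0.03, against -0.22 for all genes (-0.10 and -0.01 before removal). For the interaction it was 0.69, against 0.13 for all genes. Before removal the interaction went against GC content (r -0.73 for the 50, -0.673 for genes at 10 CPM or more). After removal 4 of the 50 had an unadjusted p under 0.05 there, beside 578 of all 16426 genes in either direction. Ncapg, Anln and Kif11 were higher, and Mad2l1 was lower at -1.51 (SE 0.65). RNA quality and amplification were not measured in these files, and their part in the length trend was not tested.

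**Figure D5:**
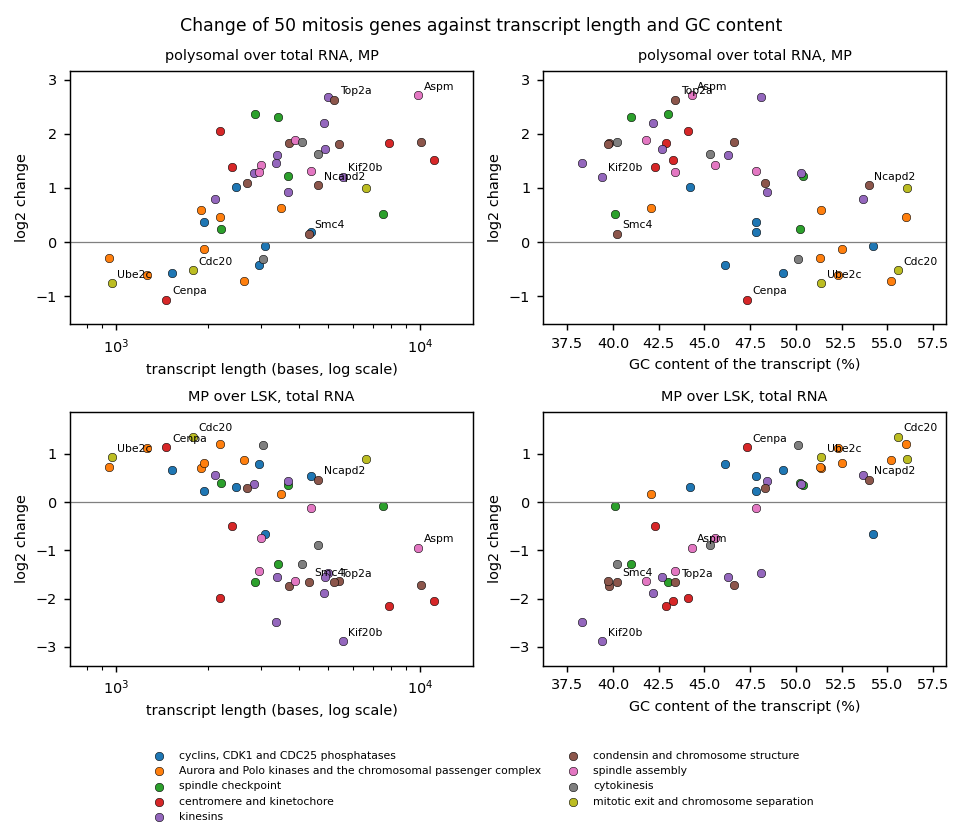
Log2 change of the 50 mitosis genes (y axis) against transcript length (left, log scale) and GC content (right), for polysomal over total RNA in MP (top) and MP over LSK in total RNA (bottom), coloured by role. Long, GC-poor transcripts such as Aspm and Top2a lie high in the top panels (r 0.638 with length), and short, GC-rich ones such as Cdc20 and Ube2c lie high in the bottom panels (r 0.78 with GC).

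A further 104 genes of the same processes were all tested. Their median log2 change was 0.04 in total RNA and 0.40 in polysomal RNA between populations, beside -0.10 and 0.55 for the 50 genes. Between fractions it was -0.01 in LSK and 0.57 in MP, beside 0.02 and 1.15, and for the interaction 0.32, beside 0.94. By edgeR 0 of the 104 passed in any of the 5 comparisons. By DESeq2 4 did in total RNA (3.85%, against 8.1% of its genes) and 0 in the other comparisons. By unadjusted p, 1 was higher and 13 lower in total RNA (0.962% and 12.5%, against 4.52% and 12.5% of all genes). In polysomal RNA 1 was higher and 1 lower (0.962% each, against 6.09% and 11.7%). On LSK polysomes 2 were higher and 1 lower (1.92% and 0.962%, against 3.56% and 8.5%). On MP polysomes 15 were higher and 0 lower (14.4% and 0%, against 4% and 3.57%). For the interaction 13 were higher and 0 lower (12.5% and 0%, against 4.74% and 0.554%).

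Cohesin, the ring that holds sister chromatids, had a median of 1.504 on MP polysomes with 13 of 13 genes above 0, and of -1.56 in total RNA between populations with 1 of 13 above 0. Smc1a, an ATPase of that ring, was at 414 and 201 CPM in LSK total, 702 and 186 in LSK polysomal, 89.9 and 59.3 in MP total, and 568, 406 and 334 in MP polysomal RNA, a log2 change on MP polysomes of 2.55 (SE 0.67, adjusted p = 0.656 by edgeR). Stag2, its DNA-binding subunit, was at 314 and 87.6 CPM in LSK total, 178 and 73.4 in LSK polysomal, 36.2 and 31.3 in MP total, and 261, 110.1 and 159 in MP polysomal RNA, with 2.39 in the same comparison (SE 0.71, adjusted p = 0.656 by edgeR) and -2.57 in total RNA between populations (SE 0.75, adjusted p = 0.123 by edgeR). Both MP total libraries were below all others for both genes. Ckap5, a microtubule polymerase, followed with 2.65 on MP polysomes (SE 0.78), and Cep192, a centrosome scaffold, with 2.43 (SE 0.72), each with an adjusted p of 0.656 by edgeR.

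The 17 genes of the anaphase-promoting complex had a median of -0.09 on MP polysomes, with 5 above 0. The 18 G2 and M regulators had a median of 0.02 there. Among them Fam64a had the smallest p of the 104 in polysomal RNA between populations, at 116 and 70.01 CPM in LSK total, 157 and 200 in LSK polysomal, 65.1 and 27.5 in MP total, and 70.5, 48.3 and 24.1 in MP polysomal RNA. The 3 MP polysomal libraries lay below both LSK polysomal ones, with a log2 change of -1.91 (SE 0.58, adjusted p = 0.115 by edgeR). Ska1, of the kinetochore complex that holds on to microtubule ends, followed with 1.19 (SE 0.48, adjusted p = 0.229 by edgeR). In LSK, Mad1l1, which recruits checkpoint protein to kinetochores, had the smallest p between fractions, with a log2 change of 1.69 (SE 0.64, adjusted p = 0.33 by edgeR).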

How the data were processed

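The authors deposited raw counts per gene symbol, whole numbers. Per the submitters' processing notes, the builds were mm10 and GRCm38 and the tools STAR, featureCounts, bcl2fastq and DESeq2. Tool versions, gene models and strandedness of the counting: not given in the sources used here. A second deposited table, normalized and close to a log2 scale, with a floor of 3.73, served as an alternative only. All columns matched a sample by name, and groups were taken from the sample titles. The mitosis genes, the 104 further genes and the marker lists were chosen with earlier results of these data known.

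The counts went through edgeR 4.0.16 in R 4.3.3. Genes passed filterByExpr (minimum count 10, minimum total 15), library sizes were scaled by TMM, and all 9 libraries entered 1 quasi-likelihood fit with 4 group means (5 residual degrees of freedom, 4.58 prior). Tests were two-sided, with Benjamini-Hochberg adjustment over 16426 genes in each of 5 comparisons and a threshold of 0.05. SE and 95% intervals came from the same fit. Exact permutation tests of 2 against 2 or 3 libraries reach no p under 0.33 or 0.2 and were not run. DESeq2 1.42.0 and limma 3.58.1 gave alternatives. Groups "do not overlap" when every library of 1 group exceeds every library of the other. The procedure was tested on simulated counts.

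Length, GC content and gene models came from GENCODE M21 (GRCm38), matched by symbol for 96.5% of tested genes; coding length was taken from it because no protein table was used here. Promoters came from RefSeq (GRCm38.p6). Values in every library are given for 9 genes taken whatever their p (Cdk1, Ccnb1, Top2a, Mki67, Kif11, Aurkb, Bub1, Smc4 and Cdc20), for the 4 genes with the smallest p in each comparison, and for up to 4 further mitosis genes by the same rule, part of which are named; Ccna2 was added after its values were seen. Alternatives were other scalings, no filter, DESeq2, the compared groups alone, replicate blocks, leaving out libraries, the authors' normalized values and removal of length and GC trends.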

Additional observations from a re-analysis of the deposited data

Results flagged for a closer look

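Kif20b and Ncapg had polysomal over total changes of opposite sign in MP and LSK cells, every MP polysomal library lying above and every LSK polysomal library below the total RNA libraries of its population. The difference between the populations was 2.42 for Kif20b and 3.64 for Ncapg on the log2 scale. Ncapg and Kif11 likewise had MP over LSK changes of opposite sign in polysomal and total RNA, with differences of 3.64 and 2.92. The test of each difference, the interaction in edgeR, gave an adjusted p of 0.877 for all 3 genes and did not pass. After removal of the length and GC trends the differences were 0.87 (SE 0.63) for Kif20b, 2.365 (SE 0.66) for Ncapg and 1.89 (SE 0.80) for Kif11. Polysomal over total changes were then 0.17 (SE 0.42) in MP and -0.70 in LSK for Kif20b, and 1.06 and -1.31 for Ncapg. Both pairs of changes use the same libraries, so they are not separate evidence.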

How the results depend on the processing

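The count of mitosis genes called between populations in total RNA was 0 and became 3 with DESeq2 and 1 without the filter on low counts, with the authors' normalized values, without both LSK libraries numbered 2 and with the replicate block by number; Kif20b was the 1 gene, with an adjusted p from 0.000942 to 0.531 over its alternatives. Leaving out each library in turn gave 0 to 1, the 1 being Kif20b without LSK polysomal 1 or LSK polysomal 2. Of all genes in total RNA, DESeq2 called 1352 of 16691, and 1206 of 31421 were called without the filter. With the authors' values 850 of 16426 were called, and with the block 570 of 16426. In polysomal RNA the count was 3 with DESeq2 (1498 of 18518 genes) and 1 (Incenp) without the filter (1558 of 31421 genes). On MP polysomes it was 1 (Top2a) without the filter (22 of 31421 genes). The cause was not tested. Counts in LSK and for the interaction were 0 under every alternative run. Leaving out each library in turn, the median log2 change ran from 0.061 to 1.37 in polysomal RNA between populations, from -0.98 to 0.71 on LSK polysomes and from 0.96 to 1.43 on MP polysomes. The last was 0.78 after removal of the length and GC trends. At the low and high ends of these ranges the medians of all genes were 0.12 and 0.23 in polysomal RNA between populations. They were -0.28 and 0.07 on LSK polysomes and 0.01 and -0.02 on MP polysomes. With library totals alone the median of all genes was -0.36 in total RNA between populations and -0.36 between fractions in LSK, and that of the mitosis genes -0.43 and -0.28. Of 1843 values of the named mitosis genes under alternatives, 1748 kept their sign and side of the threshold, 81 changed sign without an unadjusted p under 0.05, and 14 passed where the reported one did not.

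The labels do not say that a number marks a shared animal, lysate or day, so the main fit did not use the numbers as pairs. Deviations from the group mean, for the total and polysomal library with the same number, correlated at 0.495 in LSK. In MP they correlated at 0.506 (number 1) and -0.638 (number 2). In a group of 2 libraries the deviations mirror each other, so both LSK pairs give the same value. Between numbers, MP total 2 with MP polysomal 3 gave 0.743 and MP total 1 with MP polysomal 2 gave 0.638. These correlations therefore cannot decide which libraries shared a preparation. Neutrophil genes were high in both MP libraries numbered 1 and B cell genes in both LSK libraries numbered 2, so some same-numbered libraries were alike. The replicate block by number moved the count of calls in total RNA from 0 to 1 and that of no other comparison. Of all 16426 genes, 570 were called in total RNA with that block. Counting error was small beside the spread between libraries, since the lowest count of a mitosis gene was 167.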
